A study of Drosophila melanogaster with 18 samples.

Results

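The genes described here encode subunits of the Polycomb group (PcG), Trithorax group (TrxG), Brahma and ISWI complexes of *Drosophila*, and their mRNA levels were compared between S2 cells before heat shock (NHS) and after 30 min of heat shock (HS). The list was drawn up by known membership of these complexes and not by a rule on the measured values. Earlier results of these data were known when it was chosen. It holds 38 genes, of which 36 were matched in the table of 15602 genes and 35 were abundant enough to be tested among 7815 tested genes. S2 is an established *Drosophila* cell line with haemocyte-like properties. The sample titles of both groups name no treatment with double-stranded RNA. HS consisted of adding an equal volume of hot medium without serum and incubating the culture at HS temperature. Whether medium was added to the NHS cells is not stated in the sources used here. Poly(A)+ RNA was sequenced as directional libraries, 4 in number, with 2 biological replicates per condition. PRO-seq libraries of the same study were not used here.

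PcG proteins keep developmental genes silent over many cell divisions, and TrxG proteins keep them active. Polycomb repressive complex 2 (PRC2) methylates histone H3, PRC1 binds the methylated histone and ubiquitinates histone H2A, PhoRC helps to bring both to DNA, and the deubiquitinase complex PR-DUB removes the ubiquitin. TrxG methyltransferases of the COMPASS family place activating methyl groups on histone H3, and the Brahma and ISWI complexes slide or remove nucleosomes with the energy of ATP. The GAGA factor (GAF), whose part in the HS response the study examined, also recruits PcG and TrxG complexes to chromatin.

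mRNA levels are given as FPKM, fragments scaled for transcript length and library size, so that levels of different genes can be set side by side. Differences are given as log2 fold changes of HS over NHS on the log2(FPKM + 1) scale, which understates the change of scarce mRNAs, with 95% intervals and with adjusted p-values from limma (Benjamini-Hochberg over 7815 genes). FPKM are relative, and a loss shared by all mRNAs cannot be read from them. In a bulk culture, fewer cells that express a gene and less RNA per cell cannot be told apart.

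Across the whole table, 137 genes were called higher and 122 lower after HS at an adjusted p under 0.05, which is 1.75% and 1.56% (3.31% together) of the tested genes, and 10 genes (0.128%) were called at 0.001. With libraries rescaled to equal totals the split was 132 higher and 252 lower. FPKM totals were 831628 and 837852 in the NHS libraries and higher, at 923996 and 926922, in the HS libraries. The depths of the other libraries relative to the deepest were between 60.1% and 77.0%. The haemocyte markers *srp*, *Pxn* and *crq* stood at 58.1 to 141 FPKM in every library, while *NimC1* and *lz* were under 0.1 FPKM. The summed level of the 10 haemocyte markers was 292 and 389 FPKM before and 299 and 374 FPKM after HS. Of the markers of other tissues that were matched, *elav* alone reached 1 FPKM on average, at 8.98 and 7.97 FPKM in NHS and 9.41 and 11.2 FPKM in HS libraries.

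Of the 35 tested members, 0 were called higher and 0 lower at an adjusted p under 0.05 (limma), beside 1.75% higher and 1.56% lower among all tested genes, and 0 at 0.001 beside 0.128%. At an unadjusted p under 0.05, 3 members were higher (*ph-d*, *Scm* and *ash1*) and 2 were lower (*trr* and *Bap170*), which is 14.3% of the members beside 17.9% of all tested genes (7.42% higher and 10.5% lower). The median log2 fold change of the members was 0.05, with quartiles of -0.05 and 0.14, beside a median of -0.02 over all tested genes with quartiles of -0.17 and 0.13. In 10 members both HS libraries lay above both NHS libraries and in 5 both lay below, while in 20 the groups overlapped. The 10 include *ph-p*, which passed the filter on low values only through its HS libraries. Groups that did not overlap were found in 46.1% of all tested genes, 20.5% with HS above and 25.6% with HS below. The log2 fold change lay within 0.25 of 0 in 28 members (80.0%, beside 67.7% of all tested genes). It was 0.5 or more in size in 3 members (8.57%, beside 14.5%), which again include *ph-p* with the same limit.

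The intervals set how far these differences are bounded. The half-width of the 95% interval had a median of 0.36 over the members, from 0.24 to 0.84 on the log2 scale. The whole interval lay between -1 and 1 in 32 of the 35 members, the exceptions being *ph-p*, *ph-d* and *ash1*. Among the 6264 tested genes with a mean of 5 to 250 FPKM, the smallest log2 fold change called at 0.05 was 0.63 in size. The median of the called ones was 1.36. A difference of the size seen in most members thus lay below the smallest one called in this fit. That size depends on the model as well as on the replication. A fit of the same libraries with a block for replicate number called more genes over the whole table (334 higher and 582 lower).

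**Figure D1:**
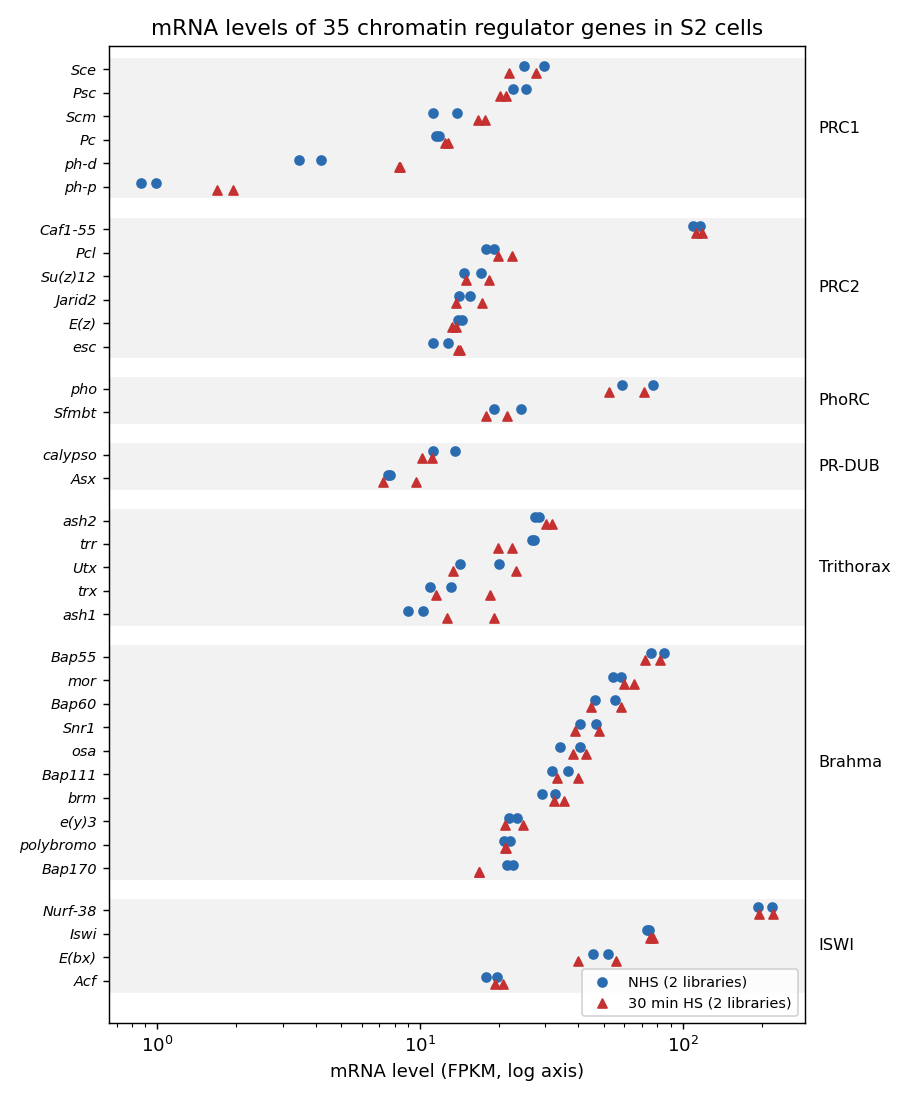
mRNA levels of the 35 tested members in FPKM on a log axis, with 1 row per gene, grouped by complex and ordered by mean level, in the 2 NHS libraries (circles) and the 2 HS libraries (triangles). Levels ran from a mean of 1.37 FPKM in *ph-p* to 208 FPKM in *Nurf-38*, and circles and triangles lie close together in most rows, with *ph-d* and *ph-p* the most widely parted.

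The members covered a wide range of levels, which the plot of levels by complex shows. Their mean over the 4 libraries ran from 1.37 FPKM in *ph-p* to 208 FPKM in *Nurf-38*, and the median NHS level was 22.1 FPKM. The second most abundant member was *Caf1-55*, at 114 FPKM. Both genes encode subunits that are shared with other complexes or functions, *Nurf-38* being the inorganic pyrophosphatase of the NURF complex and *Caf1-55* a histone-binding WD40 protein found in PRC2, NURF and chromatin assembly factors. Below them came *Bap55* (78.7 FPKM), *Iswi* (74.9 FPKM) and *pho* (64.9 FPKM).

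The PRC1 genes included *ph-d*, the member with the largest difference between the conditions. The tested genes of the complex were *Pc*, whose chromodomain binds methylated histone H3, the neighbouring paralogs *ph-p* and *ph-d*, which encode the Polyhomeotic SAM domain proteins, the RING finger genes *Psc* and *Sce*, of which *Sce* encodes the H2A ubiquitin ligase, and *Scm*, a SAM and MBT domain protein that associates with PRC1. The median log2 fold change of the 6 genes was 0.27, with both HS libraries above both NHS libraries in 4 of them and below in 1, beside 20.5% above and 25.6% below among all tested genes. Both this median and the 4 include *ph-p*, with the limit given above, and *ph-p* may share reads with *ph-d*, as described below. The median of all members was 0.05, and the complexes were not tested against each other.

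*ph-d* (FBgn0004860) had NHS levels of 4.19 and 3.45 FPKM and HS levels of 8.37 and 8.33 FPKM. The groups did not overlap, and the 2 HS libraries were nearly equal. The means were 3.82 ± 0.523 and 8.35 ± 0.0295 FPKM (SD, n = 2 each), 2.19-fold higher after HS. The log2 fold change was 0.96 (standard error 0.14, interval 0.58 to 1.34, adjusted p = 0.0516 from limma), which missed 0.05 and was the largest difference of any tested member. The adjusted p passed 0.05 in 6 of 15 other settings. These include the sum of *ph-d* and its paralog described below, which is not *ph-d* alone and was chosen after seeing the data. In the settings that kept all 4 libraries the adjusted p ranged from 0.023 to 0.099 (limma). The log2 fold change was 0.60 to 1.12 over the 15 settings.

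Its paralog *ph-p* (FBgn0004861) stood at 0.987 and 0.866 FPKM in NHS and at 1.68 and 1.95 FPKM in HS libraries. It was the scarcest tested member, below 1 FPKM in both NHS libraries, and it passed the filter of a mean of 1 FPKM only through the HS libraries. The means of 0.927 ± 0.0854 and 1.81 ± 0.189 FPKM (SD, n = 2 each) differed 1.96-fold, with a log2 fold change of 0.55 (standard error 0.21, interval -0.01 to 1.10, adjusted p = 0.290 from limma). With a pseudocount of 0.1 in place of 1 its log2 fold change was 0.90, and with a pseudocount of 5 it was 0.20, while quantile normalization gave 0.16.

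The genes are near copies of each other that lie next to each other on the X chromosome, with 0 protein-coding genes between them in the BDGP6 annotation, and reads from one may have been assigned to the other. The ratio of *ph-d* to *ph-p* was 4.24 and 3.98 before HS and 4.98 and 4.28 after it. As shared reads could give the same ratio, it does not show whether one or both paralogs differed between the conditions. The sum of both was 5.17 and 4.31 FPKM in NHS and 10.05 and 10.3 FPKM in HS libraries. Its means of 4.74 ± 0.609 and 10.2 ± 0.156 FPKM (SD, n = 2 each) differed 2.14-fold. Fitted as 1 gene in place of the pair, an alternative chosen after seeing the data, the sum had a log2 fold change of 0.96 and an adjusted p of 0.0471 (limma).

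*Scm* (FBgn0003334) stood at 13.8 and 11.2 FPKM in NHS and at 17.7 and 16.6 FPKM in HS libraries, 1.37-fold higher in the mean. Both HS libraries were above both NHS libraries, with a log2 fold change of 0.43 (standard error 0.14, interval 0.06 to 0.79, adjusted p = 0.216 from limma). *Scm* overlaps *SpdS* on the other strand, whose log2 fold change was 0.18 (adjusted p = 0.596 from limma), and no source used here says how the deposited FPKM use strand. *Psc* ran the other way, at 22.7 and 25.3 FPKM in NHS and 21.3 and 20.2 FPKM in HS libraries, with a log2 fold change of -0.20 (interval -0.48 to 0.09, adjusted p = 0.458 from limma). *Su(z)2*, the paralog of *Psc*, was not matched in the table, so that the pair could not be compared.

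The other PRC1 genes differed less between the conditions. *Pc* stood at 11.8 and 11.5 FPKM in NHS and 12.8 and 12.5 FPKM in HS libraries, a log2 fold change of 0.11 (interval -0.16 to 0.38, adjusted p = 0.686 from limma). *Sce*, the most abundant PRC1 gene, stood at 29.8 and 24.9 FPKM in NHS and 27.6 and 21.9 FPKM in HS libraries, and the groups overlapped (log2 fold change -0.14, adjusted p = 0.757 from limma). Before HS the PRC1 genes thus ranged from a mean of 0.927 FPKM in *ph-p* to 27.4 FPKM in *Sce*.

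**Figure D2:**
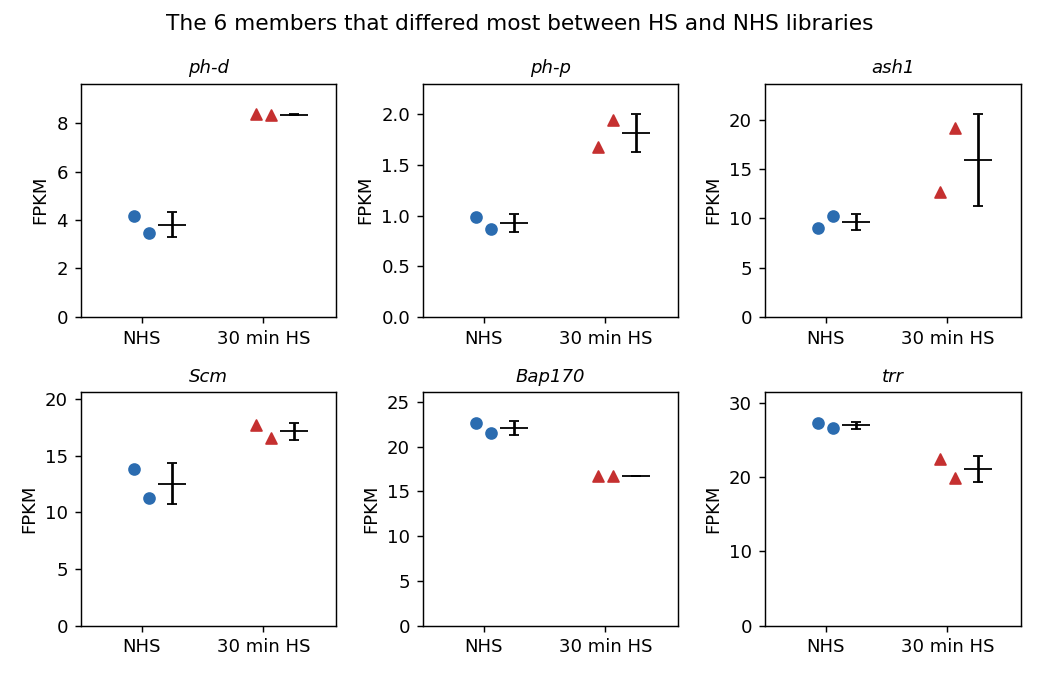
FPKM of the 6 members with the largest log2 fold changes in size, in each NHS library (circles) and each HS library (triangles), with the mean and SD of each group beside the points (n = 2 each) and axes that start at 0. In *ph-d*, *ph-p*, *ash1* and *Scm* both triangles lie above both circles, and in *Bap170* and *trr* both lie below, while the 2 HS libraries of *ash1* are far apart, at 12.6 and 19.2 FPKM.

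The 6 genes of PRC2 differed little between the conditions, with log2 fold changes from -0.07 to 0.21 and a median of 0.06. *E(z)*, the histone methyltransferase of the complex, stood at 14.4 and 13.99 FPKM in NHS and 13.8 and 13.2 FPKM in HS libraries. Both HS libraries lay just below both NHS libraries, and the log2 fold change was -0.07 (interval -0.34 to 0.20, adjusted p = 0.812 from limma). *esc*, a WD40 subunit needed for the methyltransferase activity, stood at 12.8 and 11.3 FPKM in NHS and 14.2 and 13.9 FPKM in HS libraries, with a log2 fold change of 0.21 (interval -0.09 to 0.51, adjusted p = 0.450 from limma). *Caf1-55* was at 116 and 110 FPKM in NHS and 118 and 112 FPKM in HS libraries, and its groups overlapped (log2 fold change 0.03, adjusted p = 0.936 from limma).

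The remaining PRC2 genes are *Su(z)12*, a core zinc finger subunit, and the accessory subunits *Pcl* and *Jarid2*. *Pcl* was above its NHS levels of 19.1 and 17.8 FPKM in both HS libraries, at 19.8 and 22.3 FPKM (log2 fold change 0.18). *Su(z)12* and *Jarid2* overlapped between the groups, with log2 fold changes of 0.06 and 0.05. Apart from *Caf1-55*, the PRC2 genes lay within a narrow range, from 13.0 FPKM in *esc* to 19.8 FPKM in *Pcl* as means over the 4 libraries.

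PhoRC consists of the DNA-binding protein encoded by *pho* and the MBT domain protein encoded by *Sfmbt*. *pho* stood at 77.4 and 58.9 FPKM in NHS and 71.2 and 52.3 FPKM in HS libraries, with a log2 fold change of -0.14 (interval -0.72 to 0.44, adjusted p = 0.832 from limma). *Sfmbt* stood at 24.2 and 19.1 FPKM in NHS and 21.5 and 17.8 FPKM in HS libraries (log2 fold change -0.13, adjusted p = 0.791 from limma). In both genes the groups overlapped and the replicates differed by more than the conditions.

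PR-DUB is formed by the deubiquitinase encoded by *calypso* and its partner encoded by *Asx*. *calypso*, which the annotation lists as *caly*, stood at 13.6 and 11.2 FPKM in NHS and at 10.2 and 11.1 FPKM in HS libraries. The upper HS library almost touched the lower NHS library, and the log2 fold change was -0.19 (adjusted p = 0.589 from limma). *Asx* stood at 7.71 and 7.56 FPKM in NHS and 7.22 and 9.68 FPKM in HS libraries, and the groups overlapped (log2 fold change 0.12, adjusted p = 0.816 from limma).

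**Figure D3:**
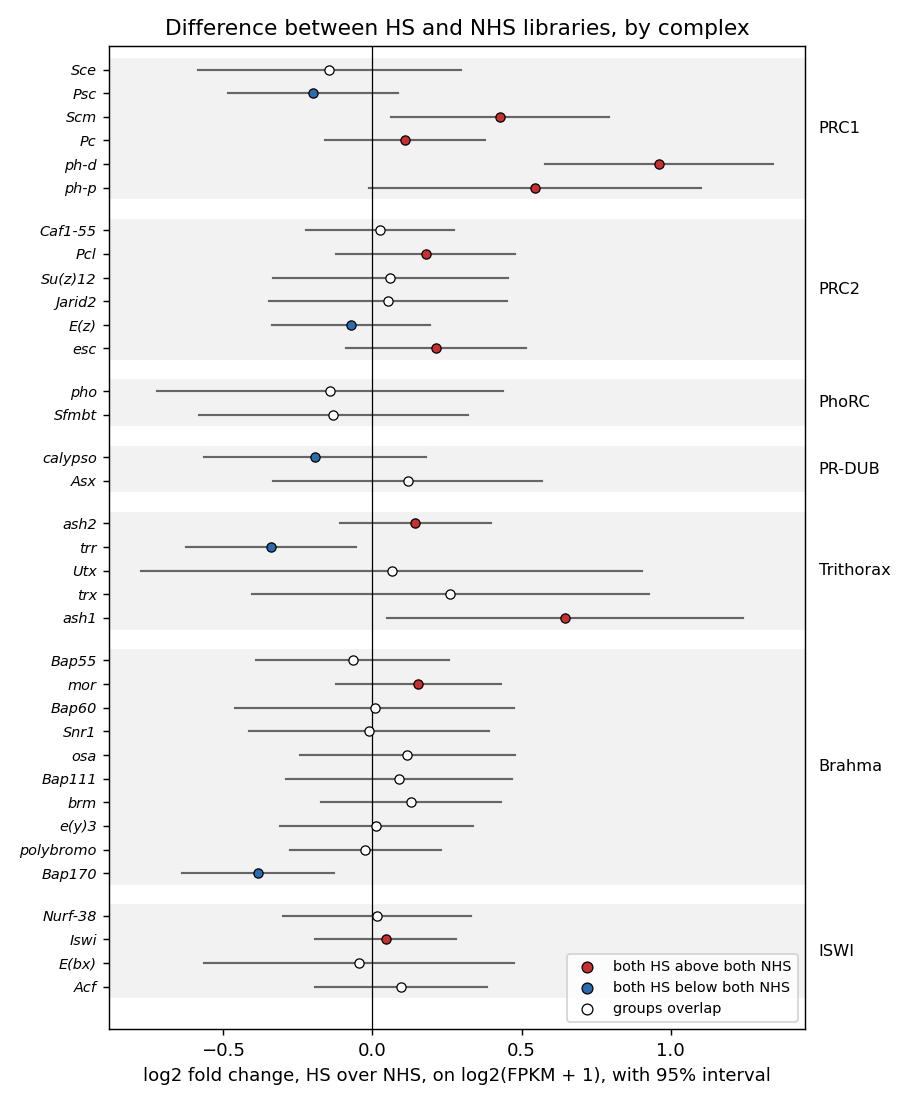
log2 fold change of HS over NHS on the log2(FPKM + 1) scale for each of the 35 tested members, with its 95% interval, grouped by complex as in the plot of levels, and coloured by whether both HS libraries lay above, below or among the NHS libraries. Of the 35 intervals, 5 do not include 0, those of *ph-d*, *Scm*, *ash1*, *trr* and *Bap170*, and all genes of PRC2, PhoRC, PR-DUB and the ISWI complexes have intervals that include 0.

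Among the Trithorax and COMPASS genes, 5 were tested, and they diverged. *ash1* (FBgn0005386), which encodes a histone H3 methyltransferase, stood at 9.04 and 10.2 FPKM in NHS and at 12.6 and 19.2 FPKM in HS libraries. Both HS libraries were above both NHS libraries, but they differed more from each other than the lower one did from the NHS libraries. The means of 9.63 ± 0.843 and 15.9 ± 4.65 FPKM (SD, n = 2 each) differed 1.65-fold, with a log2 fold change of 0.64 (standard error 0.22, interval 0.05 to 1.24, adjusted p = 0.244 from limma). Without any 1 library its log2 fold change ranged from 0.36 to 0.93.

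*trr* (FBgn0023518) encodes the methyltransferase of the COMPASS-like complex that acts at enhancers, and it was lower after HS. It stood at 27.3 and 26.6 FPKM in NHS and at 22.3 and 19.9 FPKM in HS libraries. The groups did not overlap, and the means of 26.9 ± 0.482 and 21.1 ± 1.75 FPKM (SD, n = 2 each) gave a ratio of HS to NHS of 0.784. The log2 fold change was -0.34 (standard error 0.11, interval -0.63 to -0.05, adjusted p = 0.214 from limma). *Coa8*, which overlaps *trr* on the other strand, showed a difference of -0.10 on the log2 scale (adjusted p = 0.771 from limma).

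*Utx*, which encodes the demethylase of the same complex that removes the mark placed by PRC2, stood at 14.2 and 19.9 FPKM in NHS and at 13.4 and 23.3 FPKM in HS libraries, so that its replicates differed far more than its conditions (log2 fold change 0.06, standard error 0.31). *Lpt*, a subunit of the *trr* complex that is not among the 38 members and was chosen here after its values were seen, stood at 19.2 and 20.7 FPKM in NHS and at 13.6 and 11.8 FPKM in HS libraries. Its groups did not overlap, and its log2 fold change was -0.61 (standard error 0.12, adjusted p = 0.0885 from limma). *Ptip*, another subunit of that complex and chosen in the same way, was at 4.08 and 4.85 FPKM in NHS and 5.16 and 6.91 FPKM in HS libraries. *trr* and *Lpt* were thus lower and *Ptip* higher in both HS libraries, and the differences between these genes were not tested.

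*trx*, the founding TrxG methyltransferase gene, stood at 11.0 and 13.2 FPKM in NHS and 11.6 and 18.4 FPKM in HS libraries, and the groups overlapped (log2 fold change 0.26, adjusted p = 0.698 from limma). *ash2*, a subunit of all COMPASS family complexes, was at 28.3 and 27.4 FPKM in NHS and 31.7 and 30.1 FPKM in HS libraries. Both HS values were above both NHS values, and the log2 fold change was 0.14 (interval -0.11 to 0.40, adjusted p = 0.552 from limma). *Set1*, the methyltransferase gene of the main COMPASS complex, was listed at 0 in all 4 libraries. So were 3864 of the 15602 genes in the table, among them *MED21*, which overlaps *Set1* on the other strand, and all 37 mitochondrially encoded genes. An entry of 0 may thus be a failed estimate, and no level is given for *Set1*. *kis*, a TrxG chromodomain helicase gene, was not matched in the table.

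The Brahma complex exists in a BAP form, marked by *osa*, and a PBAP form, marked by *Bap170*, *polybromo* and *e(y)3*. Its 10 genes were all tested, and 9 of them had a log2 fold change within 0.25 of 0. The exception was *Bap170* (FBgn0042085), at 22.7 and 21.5 FPKM in NHS and 16.7 and 16.7 FPKM in HS libraries. The groups did not overlap, and replicates were close in both conditions. The means of 22.1 ± 0.817 and 16.7 ± 0.00629 FPKM (SD, n = 2 each) gave a ratio of HS to NHS of 0.756, and the log2 fold change was -0.38 (standard error 0.10, interval -0.64 to -0.13, adjusted p = 0.143 from limma). Over 14 other settings its log2 fold change ranged from -0.52 to -0.32. The lowest adjusted p was 0.051 (limma), with a block for replicate number.

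The other genes of the PBAP form differed by at most 0.02 on the log2 scale. *polybromo* stood at 22.0 and 21.0 FPKM in NHS and 21.0 and 21.2 FPKM in HS libraries (log2 fold change -0.02), and *e(y)3* at 23.4 and 21.9 FPKM in NHS and 24.7 and 21.1 FPKM in HS libraries (log2 fold change 0.01). In NHS cells the PBAP genes were nearly equal in level, with means of 22.1, 21.5 and 22.6 FPKM for *Bap170*, *polybromo* and *e(y)3*. After HS the mean of *Bap170* was 16.7 FPKM, beside 21.1 and 22.9 FPKM for the other two. The difference between *Bap170* and its partners was not tested. *osa* of the BAP form had a log2 fold change of 0.12, with overlapping groups.

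The core of the Brahma complex consists of the ATPase encoded by *brm*, the scaffold subunit encoded by *mor*, and the subunits encoded by *Snr1*, *Bap60*, the actin-related *Bap55* and the HMG domain gene *Bap111*. *brm* stood at 29.2 and 32.7 FPKM in NHS and 32.5 and 35.3 FPKM in HS libraries, with overlapping groups (log2 fold change 0.13). *mor* was above its NHS levels of 58.3 and 54.2 FPKM in both HS libraries, at 65.4 and 60.1 FPKM (log2 fold change 0.15). *Bap55*, the most abundant gene of the complex, was at 85.0 and 76.0 FPKM in NHS and 82.1 and 71.8 FPKM in HS libraries, with overlapping groups (log2 fold change -0.07, adjusted p = 0.869 from limma). The log2 fold changes of *Snr1*, *Bap60* and *Bap111* were -0.01, 0.01 and 0.09. *mor* overlaps *Rbf2* on the other strand, which stood at 2.58 and 2.21 FPKM in NHS and 5.05 and 4.78 FPKM in HS libraries, and its part in the values of *mor* was not tested.

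The ISWI genes differed least in size, with log2 fold changes from -0.04 to 0.10. *Iswi*, the ATPase shared by the NURF, ACF and CHRAC complexes, stood at 73.1 and 74.3 FPKM in NHS and 75.1 and 77.1 FPKM in HS libraries. The groups lay apart by a small margin, and the log2 fold change of 0.04 had the narrowest interval of the members (-0.19 to 0.28). *Acf*, the ACF and CHRAC partner of Iswi, was at 17.8 and 19.6 FPKM in NHS and 19.4 and 20.7 FPKM in HS libraries, with overlapping groups (log2 fold change 0.10, adjusted p = 0.749 from limma).

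The NURF subunit gene *Nurf-38* was at 219 and 194 FPKM in NHS and 221 and 196 FPKM in HS libraries, and each HS library lay close to the NHS library of the same replicate number (log2 fold change 0.02, adjusted p = 0.974 from limma). *E(bx)*, which encodes the large NURF subunit, was at 45.6 and 51.9 FPKM in NHS and 39.8 and 55.8 FPKM in HS libraries. Its HS libraries enclosed its NHS libraries, and its log2 fold change was -0.04.

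The spread between replicates had a pattern of its own in these genes. The difference of replicate 2 from replicate 1 in the NHS libraries and the same difference in the HS libraries had a Pearson r of 0.82 and a Spearman rho of 0.74 over the 35 members, as a description across genes that share 4 libraries. The genes that were higher in replicate 2 in both conditions included *Utx*, *trx*, *ash1* and *E(bx)*, and those that were lower in replicate 2 in both included *pho* and *Sce*. The summed haemocyte markers were also higher in replicate 2 than in replicate 1 in both conditions (292 against 389 FPKM in NHS and 299 against 374 FPKM in HS libraries), and their part in this pattern was not tested.

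Among the members, the replicate difference varied with transcript length. Of the 13 members whose longest annotated transcript was under 3000 nt, replicate 2 was higher in 0 in NHS and in 1 in HS libraries. Of the 11 members of 3000 to 6000 nt it was higher in 4 and in 6, and of the 11 members of 6000 nt or more in 5 and in 6. The Spearman rho between log2 transcript length and the replicate difference was 0.47 in NHS and 0.50 in HS libraries over the 35 members, beside -0.0048 and 0.093 over 6334 genes of at least 5 FPKM. The Pearson r was 0.45 in NHS and 0.51 in HS libraries over the members, beside 0.245 and 0.093 over the 6334 genes. Over these genes, replicate 2 was lower in 50.6% (NHS) and 55.9% (HS) of the 4531 genes under 3000 nt, in 53.7% and 49.9% of the 1390 genes of 3000 to 6000 nt, and in 37.8% and 31.7% of the 413 genes of 6000 nt or more. The log2 fold change between the conditions had a Pearson r of 0.21 with the log2 transcript length over the 35 members, beside 0.015 over the 6334 genes.

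**Figure D4:**
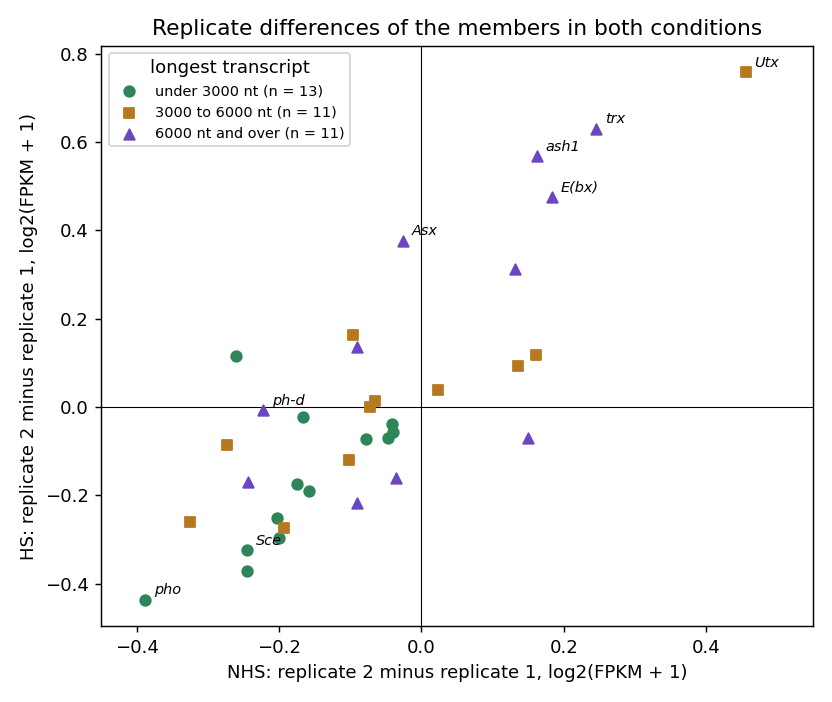
Difference of replicate 2 from replicate 1 on the log2(FPKM + 1) scale in NHS (horizontal axis) and HS libraries (vertical axis) for the 35 tested members, with marker shape by longest annotated transcript. The points run from lower left, where *pho* and *Sce* lie, to upper right, where *Utx*, *trx*, *ash1* and *E(bx)* lie, and 12 of the 13 genes under 3000 nt lie below the horizontal line at 0.

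Within each replicate number, the difference between HS and NHS had the same sign in 27 of the 35 members (77.1%), 18 of them higher and 9 lower after HS, beside 72.7% of all tested genes. For *ph-d* it was 0.85 between the replicates numbered 1 and 1.07 between those numbered 2.

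Other genes of the same pathways were listed by known function. Among all tested genes, 3.31% were called at 0.05 and 17.9% had an unadjusted p under 0.05 (limma). With 11 to 19 genes per list, 0 calls cannot be told apart from the first share. Of 13 tested PcG subunits and recruiters outside the members, 0 were called at 0.05 and the median log2 fold change was 0.07. The one with an unadjusted p under 0.05 was *corto*, at 4.74 and 4.04 FPKM in NHS and 2.82 and 2.39 FPKM in HS libraries (log2 fold change -0.58, adjusted p = 0.189 from limma). Of 11 further COMPASS subunits and demethylases, 0 were called and the median was -0.02, with *Lpt* the one at an unadjusted p under 0.05. Of 19 further ATP-dependent remodelers and their partners, 0 were called and the median was 0.01, with *simj* the one at an unadjusted p under 0.05 (log2 fold change 0.41, adjusted p = 0.228 from limma). *corto*, *Lpt* and *simj* are named here after their values were seen.

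The textbook targets of PcG silencing were listed at low values or at 0 in both conditions. Of the 14 listed homeotic and segment polarity or selector genes, 13 were matched in the table and 0 reached the mean of 1 FPKM needed for the test. The highest value of any of them in any library was 0.303 FPKM, for *hh*, which encodes the Hedgehog ligand, in an HS library. The NHS values of *hh* were 0.0520 and 0 FPKM, and this difference was not tested. Over the whole table, fewer genes were listed at 0 in the HS libraries (5021 and 4862) than in the NHS libraries (5564 and 5682). *pb*, *Dfd* and *Scr* were at 0 in all 4 libraries, which may be a failed estimate, as described for *Set1*, and does not show that they were silent. Each of the other matched genes had a value above 0 in at least 1 library. These were thus listed at low levels, and whether they were silenced was not tested.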

How the data were processed

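Poly(A)+ RNA of S2 cells was sequenced in 2 NHS and 2 HS libraries. The authors removed adapters with fastx_clipper, dropped short reads, aligned the rest to dm3 with TopHat2 as a first-strand library and deposited FPKM per gene and library from Cuffnorm. Versions and the scaling used by Cuffnorm are not given in the sources used here. Replicates are biological per the authors and carry numbers in the column names alone. Read numbers were not used, and relative depths came from the steps between low values.

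Identifiers were matched to symbols through the BDGP6 annotation and RefSeq synonyms (14925 of 15602 had a symbol). As this is not the authors' build, no coordinates are printed. The members and gene lists were chosen with earlier results of these data known.

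Deposited FPKM were transformed to log2(FPKM + 1), and genes averaging 1 FPKM or more were tested with limma 3.58.1 in R 4.3.3 (lmFit, then eBayes with a trend, modelling condition alone, with Benjamini-Hochberg adjustment). Calls were made at an adjusted p under 0.05, and at 0.001, the cutoff of the study. The study applied that cutoff with DESeq2 to read counts, so the calls made here with limma on FPKM are not like its own. Full statistics are given for called members, the 5 members highest and the 5 lowest in log2 fold change among those with groups apart, the most and least abundant member of each complex, and the paralog pairs. Other pseudocounts, filters, scalings and variance settings, a block for replicate number and leaving out each library were tried. The fit was tested on simulated data. Figures used matplotlib 3.10.9 in Python 3.11.15.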

Additional observations from a re-analysis of the deposited data

How the results depend on the processing

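With 2 libraries per condition and condition as the only term, differences under about 0.6 on the log2 scale were not called among genes of like level (smallest called 0.63). The counts of members called lower at 0.05 and called at 0.001 were 0 in all 14 planned settings and in the added one. The count called higher was 0 and became 1 (*ph-d*) with a pseudocount of 5 (log2 fold change 0.60, adjusted p = 0.0489), equal medians (1.01, 0.0466), no trend (0.96, 0.0412), robust moderation (0.96, 0.0398), or *ph-p* and *ph-d* summed (0.96, 0.0471), the last chosen after seeing the data (limma). A replicate block gave it as 1 too (0.96, 0.0230), with 334 genes higher and 582 lower over the whole table. With this block the adjusted p stayed over 0.05 but came near it in *Bap170* (0.0513), *ash1* (0.0549), *Scm* (0.0588) and *trr* (0.0671) (limma). The replicates share only a number in the column names, and the deviations of same-numbered libraries had an r of 0.22 over 7815 genes. Without any 1 library *ph-d* ranged from 0.85 to 1.07 (adjusted p 0.135 to 0.257). The lone library is then assumed to vary like the other group. Over the whole table the count called higher was 280 with no filter and 60 with a filter at 5 FPKM, 190 were lower with robust moderation, and without any 1 library 28 to 62 were higher and 6 to 36 lower. The median of the members (0.05) was -0.087 with equal totals, which moved the median of all genes from -0.02 to -0.16, 0.11 with quantile normalization and 0.10 with equal medians. Without any 1 library it ranged from -0.0042 (without NHS replicate 2) to 0.069. Members minus all genes was 0.07 and stayed positive in all of these, at 0.01 to 0.10. These settings use the same libraries and genes, so the shared sign is no independent support, and the difference was not tested. With equal totals the log2 fold change changed sign in *Caf1-55* (-0.121), *Asx* (-0.014), *Acf* (-0.046) and *Nurf-38* (-0.133), and with quantile normalization in *Bap55* (0.047). Without any 1 library it ranged across 0 in *Sce* (-0.306 to 0.018), *Caf1-55* (-0.012 to 0.066), *pho* (-0.361 to 0.076), *Sfmbt* (-0.293 to 0.032), *Asx* (-0.070 to 0.306), *Bap55* (-0.160 to 0.030) and *Nurf-38* (-0.072 to 0.103). None of these genes was called in any setting, and the cause of each change of sign was not tested. The other 244 values of named genes kept their direction and their side of the threshold.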
